A study of Homo sapiens with 64 samples.

Results

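H1703 is 1 of the 4 established human lung cancer lines of this study, all of the non-small cell kind, and its state without drug is described here against that of the other 3, H460, H838 and H1755. Every library used for the comparison came from cells given DMSO, the Vehicle, for 24 h. There were 4 libraries of H1703 Vehicle, 4 of H460 Vehicle, 4 of H838 Vehicle and 4 of H1755 Vehicle, 16 of the 64 libraries in the series. The other 48 hold the same lines after 24 h of 5 µM MYCi975, which inhibits the transcription factor MYC, of 25 µM TMP195, which blocks the class IIa histone deacetylases, or of both together (Combo). They served only as a second set of libraries of the same lines. Each line is a single cell line grown in RPMI with serum, so a difference between lines is a difference between 4 cultures and not between tumour types. Nothing in the labels says that replicates were separate cultures, and p-values then measure only the spread between these libraries.

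Libraries were made from total RNA with a stranded kit, and raw read counts per gene were deposited. Of the 60649 genes in the table, 22279 had enough counts to be tested. In addition, a gene was kept only when its mean in H460 Vehicle replicates 1 and 2 lay within 2-fold of its mean in replicates 3 and 4, because replicates 1 and 2 stood apart from the other libraries for some genes: EEF1G, a translation elongation factor gene, had 739 and 786 CPM (the count scaled to library size) there and 0 in the other 14 Vehicle libraries. The cause was not tested. The rule left 19850 genes. Of the 2429 that failed, 1557 averaged under 1 CPM in H460, and NDOR1 (1.99-fold between the replicate pairs) and DNAJB11 (2.003-fold) stood on either side of the limit. Among the failing genes, 310 were otherwise higher and 76 otherwise lower in H1703 than in each other line. PDGFRA is one of the 310. Vehicle libraries held 17352066 to 30482387 counts, with 23055102 to 27224771 in H1703. Mitochondrial ribosomal RNA took 6.52% to 17.1% of the counts, with the lowest share of each line in replicate 4. Libraries of 1 line correlated at 0.959 or more with each other and at 0.879 or less with any library of another line (Pearson, log2 CPM over genes).

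Cancer lines of the lung differ in the growth factor receptors they depend on, in how far they keep the keratins and junction proteins of epithelium, and in which tumour suppressors they have lost. Receptor tyrosine kinases such as the platelet-derived and fibroblast growth factor receptors are activated by secreted ligands and signal for growth and survival. H1703 is known in the literature for extra copies of PDGFRA and of the FGFR1 region. Gene copies were not measured here.

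Many defining markers of lung cell types were at or near 0 in H1703, and some were not. Markers without a count were found in the other lines too. Of 20 alveolar and adenocarcinoma markers, 7 had no count in H1703, against 6 in H460, 7 in H838 and 6 in H1755. In the same order of lines, the numbers were 11, 4, 7 and 7 of 20 squamous markers. They were 4, 5, 6 and 5 of 15 leukocyte markers and 4, 4, 1 and 2 of 12 fibroblast markers. The alveolar surfactant genes SFTPA1, SFTPB and SFTPC stood at 0.0412 CPM or less, 0.184 to 0.401 CPM and 0 CPM in the H1703 libraries. NKX2-1, the lung lineage transcription factor, had 0.221 to 0.329 CPM in H1703 and 0.182 CPM or less in every library of the other lines. LAMP3, a lysosomal membrane protein of alveolar type II cells, was called higher and averaged 15.5 ± 1.18 CPM in H1703, against 0.271 ± 0.155 for H460, 1.90 ± 0.348 for H838 and 0.452 ± 0.450 for H1755. The summed level of 20 alveolar and adenocarcinoma markers, 7 of them without a count in H1703, was 42.0 to 45.3 CPM in H1703, against 71.2 to 89.1 CPM in H460, 58.0 to 87.6 CPM in H838 and 489 to 604 CPM in H1755. KRT7, a keratin of this list, made up most of the sum in H1755. It averaged 1.56 ± 0.398 CPM in H1703, against 4.21 ± 0.980 for H460, 29.1 ± 6.09 for H838 and 494 ± 44.1 for H1755. The squamous markers KRT5, KRT6A and DSG3 had no count in H1703, and TP63, the squamous lineage factor, had at most 0.124 CPM, while SOX2 of the same list was called higher and is described further on. The summed level of 20 squamous markers, 11 of them without a count in H1703, was 83.4 to 144 CPM in H1703, against 269 to 528 CPM in H460, 273 to 612 CPM in H838 and 98.1 to 186 CPM in H1755, and PERP, a desmosomal protein, made up most of it in H1703 (88.7 ± 28.3 CPM in H1703, against 246 ± 107 for H460, 319 ± 154 for H838 and 81.3 ± 40.03 for H1755). NEUROD1 and INSM1, neuroendocrine factors, had no count in H1703. Of other neuroendocrine markers, CHGA averaged 0.115 ± 0.0317 CPM in H1703, against 7.06 ± 0.767 for H460, 0.189 ± 0.121 for H838 and 0.0521 ± 0.104 for H1755. CHGB averaged 5.25 ± 0.742 CPM in H1703, against 0.249 ± 0.0829 for H460, 1.25 ± 0.480 for H838 and 0.156 ± 0.184 for H1755. In the neuroendocrine and neuronal list, 5 of 16 genes kept were higher and 3 lower, as described further on. Leukocyte PTPRC also had no count in H1703, but ITGAM, an integrin of myeloid cells, averaged 5.81 ± 1.29 CPM in H1703, against 0.0552 ± 0.0579 for H460, 0.103 ± 0.0685 for H838 and 0.131 ± 0.103 for H1755. The summed level of 15 leukocyte markers was 5.05 to 8.32 CPM in H1703, against 3.60 to 25.6 CPM in H460, 3.22 to 3.74 CPM in H838 and 3.09 to 4.001 CPM in H1755. ITGAM made up most of it in H1703. Of the 3 kept, 0 were higher and 1 lower. That was CD14, at 0.104 CPM in H1703, against 0.947 for H460, 0.502 for H838 and 0.346 for H1755. Its call was lost without replicate 2 or 3 of each line and without H1703 replicate 2, 3 or 4. The fibroblast collagen and proteoglycan genes COL1A2, DCN and LUM had no count in H1703, while FAP, a fibroblast surface protease, averaged 4.18 ± 0.526 CPM in H1703, against 0.0205 ± 0.0409 for H460, 0.0379 ± 0.0489 for H838 and 0.0357 ± 0.0424 for H1755, and THY1 was called higher. Both ITGAM and FAP failed the H460 replicate rule. The summed level of 12 fibroblast markers was 1013 to 1072 CPM in H1703, against 24.6 to 40.7 CPM in H460, 24.1 to 29.8 CPM in H838 and 16.9 to 32.8 CPM in H1755. PDGFRA, the receptor described further on, is one of the 12 and made up most of the sum in H1703. Of the 5 markers kept, 1 was higher and 1 lower. COL1A1, a collagen of fibroblasts, was lower, at 0.365 CPM in H1703, against 7.68 for H460, 7.65 for H838 and 11.6 for H1755. The part of other cell types in the results was not tested. In RNA from a whole culture, fewer cells of a type and less RNA per cell cannot be told apart.

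A gene is called higher or lower here when its adjusted p was under 0.05 over all tested genes (edgeR quasi-likelihood test, Benjamini-Hochberg) and it differed at least 2-fold. Means are given with the SD over the 4 libraries of a line. Against H460, 3533 genes (17.8% of the genes kept) were higher in H1703 and 3362 (16.9%) lower, 34.7% in either direction. Against H838 the counts were 3446 (17.4%) and 3407 (17.2%), together 34.5%, and against H1755 they were 3226 (16.3%) and 3427 (17.3%), together 33.5%. In all 3 comparisons at once, 1148 genes (5.78%) were higher and 1175 (5.92%) lower in H1703, 11.7% in either direction. The 3 comparisons share the H1703 libraries, so they are not independent of each other. Among larger differences, 404 genes were at least 4-fold higher and 701 at least 4-fold lower than in each other line, and at 16-fold the counts were 108 and 250. At 64-fold they were 38 and 32, and at 128-fold 13 and 4. In 1102 of the 1148 higher genes every H1703 library lay above all 12 others, and in 1012 of the 1175 lower genes every one lay below. The same libraries chose these genes, so these counts are not separate support. With replicate 4 of every line and replicates 1 and 2 of H460 left out, 1242 genes were higher and 1074 lower, of which 1019 and 995 were the same genes. In replicate 4 alone, which also took part in the choice, 1145 of 1148 and 1141 of 1175 kept their sign. There, 794 and 659 differed at least 2-fold from each other line. Protein-coding genes made up 768 of the higher and 761 of the lower genes.

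The drug-treated libraries were not used to choose these genes. Of the 1148 higher genes, 909 were also higher in H1703 than in each other line among MYCi975 libraries, 934 among TMP195 libraries and 847 among Combo libraries. Of the 1175 lower genes the counts were 974, 924 and 919. The share of all genes called higher in those libraries was 6.03% with MYCi975, 6.58% with TMP195 and 6.95% with Combo, and lower 6.26%, 6.22% and 6.91%. None of the 2323 was called the opposite way with any treatment. All 3 treatments together kept 762 of the higher (66.4%) and 816 of the lower genes (69.4%).

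**Figure D1:**
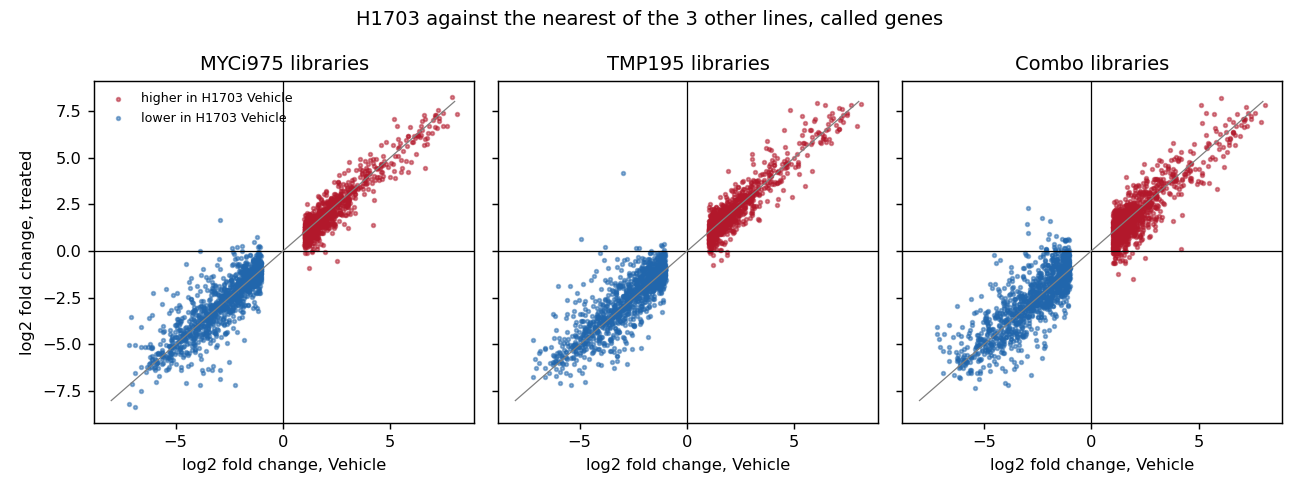
Log2 fold change of H1703 against the nearest of the 3 other lines in Vehicle libraries (x axis) and in libraries of 1 treatment (y axis). Each point is 1 of the genes called higher (red) or lower (blue) in Vehicle that was also tested in that treatment. Most points lie near the line of equal change, and 1114, 1113 and 1087 of the red points have all 3 fold changes above 0 with MYCi975, TMP195 and Combo.

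The alpha receptor for platelet-derived growth factor and its ligands PDGFC and PDGFB were higher in H1703 than in the other lines. PDGFRA (chr4:54229097-54298247, GRCh38), the alpha receptor, had 960.1, 976, 963 and 934 CPM in the H1703 libraries, against 9.62, 10.7, 5.56 and 3.17 CPM in H460, 4.23, 5.70, 5.42 and 1.86 CPM in H838 and 4.95, 5.605, 4.90 and 0.208 CPM in H1755. Every H1703 library lay far above the 12 others, with no overlap. PDGFRA failed the H460 replicate rule, so it is not among the 1148. PDGFRA log2 fold changes were 7.05 ± 0.58 against H460, 7.82 ± 0.61 against H838 and 7.96 ± 0.62 against H1755 (SE; adjusted p = 1.37e-08, 6.15e-09 and 5.38e-09). Its ligand PDGFC (chr4:156760454-156971394) had 579, 518, 529 and 476 CPM in the H1703 libraries, against 15.02, 14.8, 15.2 and 11.5 CPM in H460, 26.002, 23.04, 29.2 and 35.7 CPM in H838 and 35.7, 35.9, 34.6 and 34.6 CPM in H1755. The groups did not overlap. PDGFC log2 fold changes were 5.21 ± 0.14 against H460, 4.20 ± 0.13 against H838 and 3.899 ± 0.13 against H1755 (SE; adjusted p = 3.55e-14, 1.57e-13 and 2.09e-13). PDGFB (chr22:39223359-39244751), which binds both receptors, had 90.3, 84.3, 91.7 and 77.2 CPM in the H1703 libraries, against 0.491, 0.410, 0.455 and 0.270 CPM in H460, 1.31, 0.718, 0.781 and 0.472 CPM in H838 and 0.441, 0.477, 0.670 and 0.375 CPM in H1755. PDGFB log2 fold changes were 7.71 ± 0.25 against H460, 6.71 ± 0.23 against H838 and 7.45 ± 0.25 against H1755 (SE; adjusted p = 1.47e-13, 4.56e-13 and 1.95e-13). Of 10 genes of this axis, 5 were kept, and PDGFC and PDGFB were the 2 called, where 11.7% of all genes kept were. PDGFA, another ligand of the alpha receptor, averaged 34.3 ± 4.42 CPM in H1703, against 32.0 ± 4.90 for H460, 60.2 ± 15.5 for H838 and 109 ± 29.9 for H1755, and it passed in 1 comparison only, against H1755 (log2 fold changes 0.10, -0.81 and -1.67 against H460, H838 and H1755). The beta receptor PDGFRB averaged 0.321 ± 0.192 CPM in H1703, against 2.38 ± 0.657 for H460, 0.0909 ± 0.0827 for H838 and 3.35 ± 1.12 for H1755. It was lower than in H460 and H1755 and higher than in H838.

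**Figure D2:**
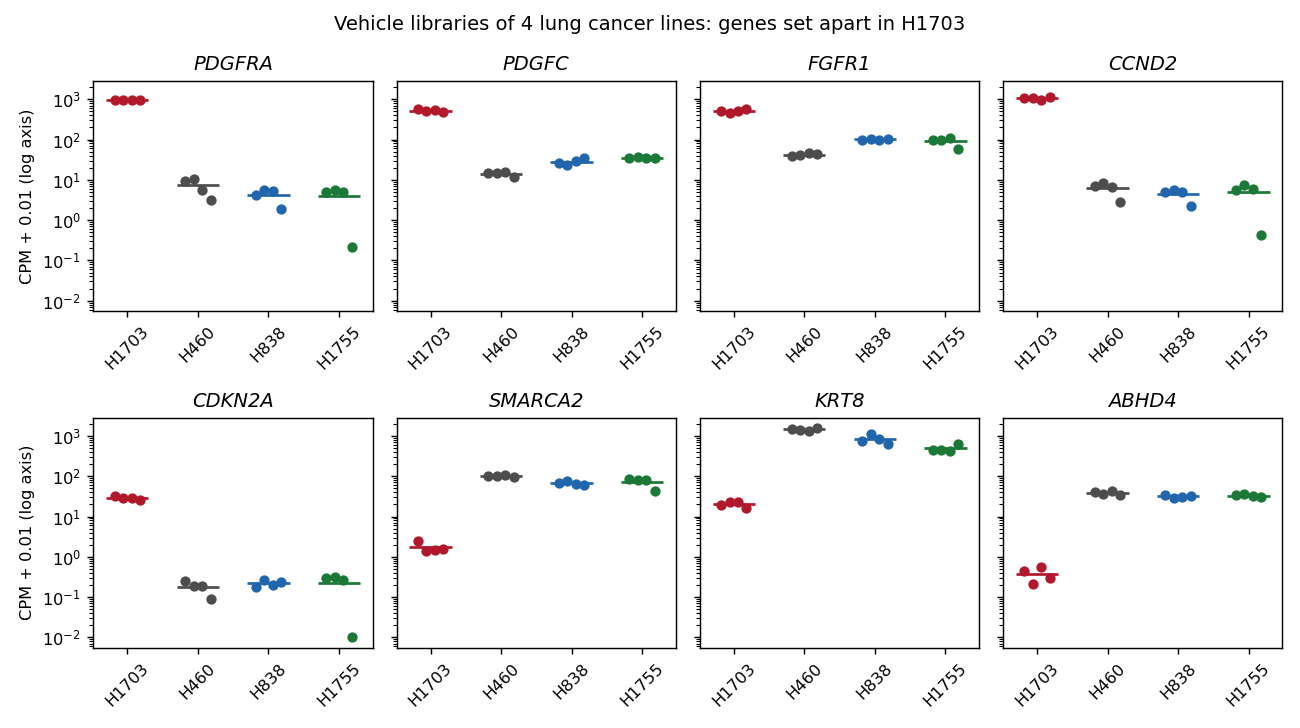
CPM plus 0.01 (log axis) of 8 genes in each Vehicle library, grouped by line, with H1703 first; points are libraries and lines the group means. PDGFRA, PDGFC, FGFR1, CCND2 and CDKN2A are higher and SMARCA2, KRT8 and ABHD4 lower in all 4 H1703 libraries than in the 12 others.

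In the promoter window that the RefSeq table (GRCh38.p14, plus strand) gives nearest to the annotated start of PDGFRA, shown because the receptor is one of the genes this comparison turns on, the capitals mark the dinucleotide CG, the site of DNA methylation. There were 8 in this window of 300 bases (chr4:54229043-54229342), against a median of 14 over the 35116 promoters of that table, of which 96.0% hold at least 1. CG reads the same on both strands. Methylation was not measured, and the count describes the sequence only.
PDGFRA promoter: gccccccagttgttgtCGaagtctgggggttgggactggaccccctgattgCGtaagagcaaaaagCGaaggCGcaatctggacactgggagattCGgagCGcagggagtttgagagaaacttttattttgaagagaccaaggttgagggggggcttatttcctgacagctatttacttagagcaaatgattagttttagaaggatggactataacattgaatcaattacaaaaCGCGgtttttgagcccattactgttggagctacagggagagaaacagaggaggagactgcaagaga

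The fibroblast growth factor receptors FGFR1, FGFR2 and FGFR3 were higher in H1703 than in each other line. Of 12 genes of this axis 8 were kept, and 4 were higher (FGFR1, FGFR2, FGFR3 and FGF5) and 2 lower (FGFRL1 and FGFBP1). Over all genes kept, 5.78% were higher and 5.92% lower. FGFR1 (chr8:38400215-38468834) had 523, 457, 498 and 567 CPM in the H1703 libraries, against 38.5, 41.0, 46.4 and 42.7 CPM in H460, 97.7, 105, 99.2 and 103 CPM in H838 and 97.3, 96.8, 108 and 56.9 CPM in H1755. The lowest H1703 library lay well above the highest of the others. FGFR1 log2 fold changes were 3.60 ± 0.16 against H460, 2.34 ± 0.15 against H838 and 2.51 ± 0.15 against H1755 (SE; adjusted p = 4.19e-12, 4.91e-10 and 2.0e-10). The ligand FGF5 had 32.8, 28.5, 22.9 and 35.0 CPM in the H1703 libraries, against 0.0818, 0.137, 0.182 and 0.116 CPM in H460, 0.164, 0.154, 0.0977 and 0.189 CPM in H838 and 0.343, 0.477, 0.412 and 1.13 CPM in H1755. FGF5 log2 fold changes were 7.81 ± 0.35 against H460, 7.54 ± 0.34 against H838 and 5.61 ± 0.30 against H1755 (SE; adjusted p = 6.2e-12, 7.39e-12 and 4.47e-11). FGFR2 averaged 3.798 ± 0.607 CPM in H1703, against 1.69 ± 0.569 for H460, 0.0607 ± 0.0429 for H838 and 0.0258 ± 0.0515 for H1755. FGFR3 averaged 39.4 ± 7.72 CPM in H1703, against 11.9 ± 2.56 for H460, 10.9 ± 2.19 for H838 and 2.82 ± 0.649 for H1755. FGFRL1, a receptor without a kinase domain, averaged 34.9 ± 5.45 CPM in H1703, against 177 ± 32.5 for H460, 118 ± 17.9 for H838 and 347 ± 68.9 for H1755. The median log2 fold change of the 8 genes was 1.45 against H460, 1.51 against H838 and 2.01 against H1755, beside medians of 0, 0.0093 and -0.0097 over all genes kept.

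Many neighbours of FGFR1 were higher in H1703 too. Within 2 Mb on either side of the gene, 37 genes were kept, of which 23 were higher and 0 lower in H1703 than in each other line (62.2%, against 5.78% of all genes). Among protein-coding genes the count was 14 of 21. The 14 are PLPBP, ADGRA2, EIF4EBP1, ASH2L, LSM1, BAG4, DDHD2, PLPP5, NSD3, FGFR1, TACC1, TM2D2, ADAM9 and ADAM32. NSD3, a histone H3 lysine 36 methyltransferase, had 920.1, 850.2, 813 and 930.0 CPM in the H1703 libraries, against 145, 143, 153 and 174 CPM in H460, 192, 194.6, 184 and 200.1 CPM in H838 and 196, 204, 186 and 171 CPM in H1755, with no overlap between H1703 and the rest. ADAM9, a membrane metalloprotease, averaged 663 ± 36.9 CPM in H1703, against 121 ± 16.04 for H460, 189 ± 12.9 for H838 and 205 ± 20.6 for H1755. TACC1, a coiled-coil protein of centrosomes and microtubules, averaged 589.8 ± 18.9 CPM in H1703, against 28.6 ± 2.01 for H460, 149 ± 10.4 for H838 and 99.3 ± 13.7 for H1755. The translation repressor EIF4EBP1 averaged 107 ± 40.4 CPM in H1703, against 27.2 ± 9.13 for H460, 29.1 ± 8.27 for H838 and 25.3 ± 9.65 for H1755. Medians over the 37 genes were 2.005 against H460, 1.58 against H838 and 1.73 against H1755 on the log2 scale. The first and last protein-coding genes of the window were not higher. ZNF703 had log2 fold changes of 0.05, -0.83 and -3.48 against H460, H838 and H1755, and TCIM had -3.74, -5.80 and -0.24. Several of the 23 are antisense genes that overlap a neighbour, and since the strand setting of the counting is not given in the sources used here, their reads cannot be told apart from those of the neighbour. Around PDGFRA, by comparison, 1 of 19 genes within 2 Mb was higher (5.26%) and 0 lower, and among the 12 protein-coding genes there 0 were called. Of these, CHIC2, LNX1, USP46 and FIP1L1 had log2 fold changes between 0.14 and 1.72. Others did not go that way. SCFD2 had -0.32, 0.10 and -0.30 against H460, H838 and H1755, and ERVMER34-1 had -3.37, -2.59 and 0.17. Medians over the 19 genes were 0.21, 0.38 and 0.17.

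**Figure D3:**
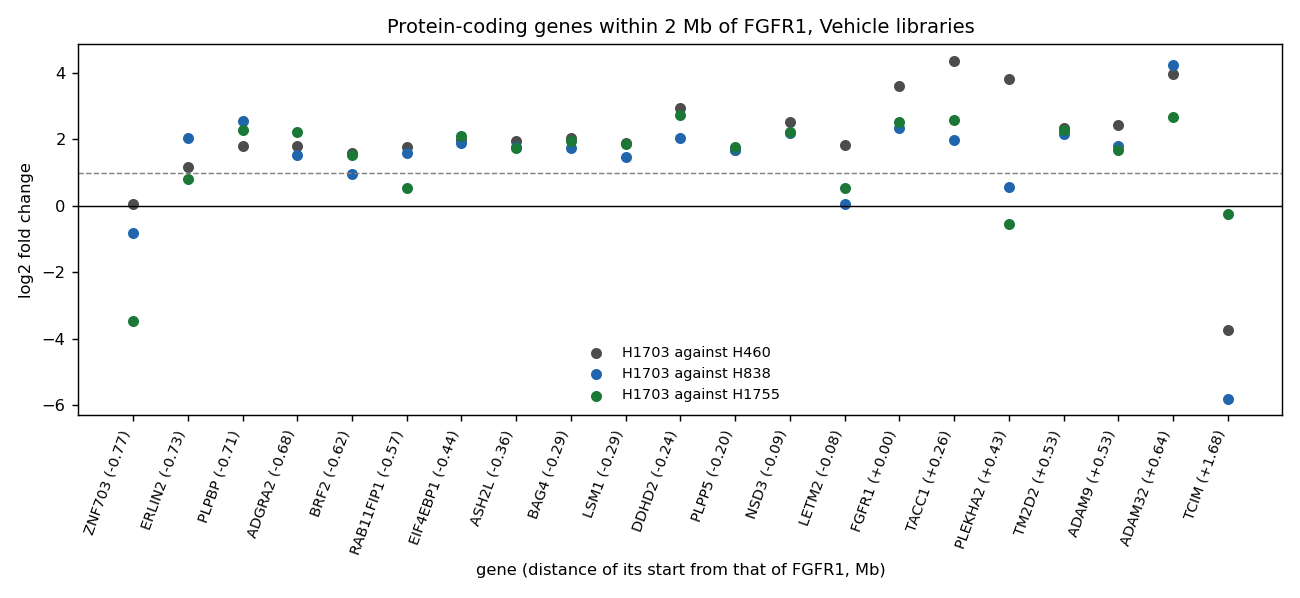
Log2 fold change of H1703 against each of the 3 other lines (points, coloured by line) for the 21 protein-coding genes within 2 Mb of FGFR1, in chromosomal order with the distance of each start from that of FGFR1 in Mb. The dashed line marks a 2-fold difference; 14 genes have all 3 points above it, and ZNF703 and TCIM at the ends do not.

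Among the other growth factor receptors, calls went both ways, where 5.78% of all genes kept were higher and 5.92% lower. IGF1R, the receptor of insulin-like growth factors, was lower in H1703 and averaged 16.1 ± 2.89 CPM in H1703, against 179 ± 15.03 for H460, 661 ± 69.9 for H838 and 68.2 ± 20.8 for H1755. AXL, the receptor of GAS6, was lower and averaged 4.48 ± 2.04 CPM in H1703, against 38.03 ± 4.78 for H460, 158 ± 48.3 for H838 and 1245 ± 260.1 for H1755. RET, the receptor of glial cell line-derived neurotrophic factors, was higher and averaged 4.38 ± 1.39 CPM in H1703, against 0.158 ± 0.0810 for H460, 0.0128 ± 0.0257 for H838 and 0.269 ± 0.432 for H1755. Its co-receptor GFRA1 had 150.4, 191, 199 and 261 CPM in the H1703 libraries, against 1.64, 1.41, 1.59 and 1.78 CPM in H460, 0.411, 0.924, 0.781 and 0.409 CPM in H838 and 0.931, 1.31, 0.876 and 0.125 CPM in H1755. INSR, the insulin receptor, averaged 38.8 ± 0.522 CPM in H1703, against 6.05 ± 1.44 for H460, 18.8 ± 1.68 for H838 and 0.214 ± 0.146 for H1755. Its call against H838 (log2 fold change 1.04 ± 0.20, SE, adjusted p = 1.92e-04) was lost without replicate 3 of each line, where the log2 fold change was 0.99. Of 28 genes in this receptor list 23 were kept, of which INSR and RET were higher and AXL and IGF1R lower. EGFR averaged 483 ± 86.8 CPM in H1703, against 117 ± 16.1 for H460, 112 ± 15.7 for H838 and 348 ± 18.5 for H1755. It passed against H460 and H838 but not against H1755 (log2 fold changes 2.04, 2.11 and 0.47 against H460, H838 and H1755). In the insulin-like growth factor axis 3 of 16 genes were higher and 3 lower. IGFBP3, which binds these factors in serum, averaged 1335 ± 233 CPM in H1703, against 157 ± 7.16 for H460, 42.0 ± 11.7 for H838 and 38.7 ± 9.78 for H1755. IGFBP3 log2 fold changes were 3.08 ± 0.21 against H460, 4.99 ± 0.24 against H838 and 5.11 ± 0.24 against H1755 (SE; adjusted p = 1.44e-09, 1.05e-11 and 7.64e-12). HMGA2, a chromatin protein of embryonic tissue, averaged 100.5 ± 12.1 CPM in H1703, against 1.05 ± 0.324 for H460, 3.46 ± 1.93 for H838 and 42.5 ± 16.5 for H1755. IGFBP6 averaged 0.0752 ± 0.0402 CPM in H1703, against 13.4 ± 1.77 for H460, 4.003 ± 1.89 for H838 and 11.9997 ± 0.312 for H1755.

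Cyclin D2 and the kinase inhibitor gene CDKN2A, both regulators of entry into S phase, were higher in H1703. CCND2 (chr12:4273772-4305350), which encodes cyclin D2, had 1101, 1077, 979 and 1120.2 CPM in the H1703 libraries, against 7.12, 8.19, 6.51 and 2.82 CPM in H460, 5.09, 5.49, 4.93 and 2.27 CPM in H838 and 5.59, 7.45, 6.08 and 0.417 CPM in H1755. H1703 was high in all 4 libraries and every other library was low, lowest in replicate 4. CCND2 log2 fold changes were 7.44 ± 0.55 against H460, 7.93 ± 0.56 against H838 and 7.80 ± 0.56 against H1755 (SE; adjusted p = 3.21e-09, 2.01e-09 and 2.17e-09). Cyclin D1, encoded by CCND1, averaged 138 ± 17.1 CPM in H1703, against 290.1 ± 37.0 for H460, 391 ± 23.1 for H838 and 210.0 ± 31.8 for H1755. It was lower than in H460 and H838 and did not pass the 2-fold limit against H1755 (log2 fold changes -1.07, -1.499 and -0.60 against H460, H838 and H1755). CDKN2A (chr9:21967753-21995301), which encodes the CDK4 and CDK6 inhibitor p16INK4a and the MDM2 inhibitor p14ARF, had 32.7, 28.2, 28.2 and 25.3 CPM in the H1703 libraries, against 0.245, 0.182, 0.182 and 0.0772 CPM in H460, 0.164, 0.257, 0.195 and 0.220 CPM in H838 and 0.294, 0.298, 0.258 and 0 CPM in H1755. It was near 0 in every library of the other lines. CDKN2A log2 fold changes were 7.35 ± 0.39 against H460, 7.06 ± 0.38 against H838 and 7.11 ± 0.39 against H1755 (SE; adjusted p = 4.09e-11, 5.02e-11 and 5.52e-11). Its neighbour CDKN2B, which failed the H460 replicate rule at a level near 0 in that line, had 6.20, 6.42, 5.07 and 5.73 CPM in the H1703 libraries, against 0.123, 0.0910, 0 and 0 CPM in H460, 0, 0.0513, 0 and 0.0315 CPM in H838 and 0, 0, 0 and 0 CPM in H1755. MTAP, the methylthioadenosine phosphorylase gene beside CDKN2A, had 85.4, 80.6, 70.5 and 85.3 CPM in the H1703 libraries, against 141, 142, 137 and 162 CPM in H460, 0.657, 0.924, 1.12 and 0.157 CPM in H838 and 1.23, 1.19, 1.19 and 0.0417 CPM in H1755. MTAP was high in H1703 and H460 and near 0 in H838 and H1755. Within 1 Mb of CDKN2A, 14 genes were kept, and their medians were -0.34 against H460, 6.45 against H838 and 6.82 against H1755. KLHL9 there averaged 30.5 ± 2.93 CPM in H1703, against 38.3 ± 6.71 for H460, 0.241 ± 0.170 for H838 and 0.249 ± 0.183 for H1755. RB1, the target of these cyclin kinases, averaged 116 ± 15.2 CPM in H1703, against 82.3 ± 15.2 for H460, 107 ± 16.8 for H838 and 130.1 ± 8.34 for H1755. It passed the 2-fold limit in none of the 3 comparisons. CDKN1A, another kinase inhibitor and a p53 target, averaged 6.07 ± 0.971 CPM in H1703, against 38.5 ± 12.4 for H460, 24.9 ± 5.61 for H838 and 12.2 ± 2.62 for H1755. Its call against H1755 (log2 fold change -1.01 ± 0.24, SE, adjusted p = 0.00179) was lost with the replicate number as a block (-0.99), with a term that set replicate 4 and H460 replicates 1 and 2 apart (-0.99), without replicate 1 (-0.96) or 3 (-0.97) of each line, and without H1703 replicate 2 (-0.95), 3 (-0.94) or 4 (-0.95). Of 19 genes of the G1 checkpoint kept, CCND2 and CDKN2A were higher and CDKN1A lower, beside 11.7% called either way over all genes kept.

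CDKN2A has 2 start sites that give different proteins, and both RefSeq windows (GRCh38.p14, minus strand) are shown because the counts do not separate them. The first (chr9:21995275-21995574) lies at the upstream start and holds 28 CG, in capitals, and the second (chr9:21974808-21975107) lies at the downstream start and holds 26. The quartiles over all promoters of the table were 4 and 28.
CDKN2A upstream start: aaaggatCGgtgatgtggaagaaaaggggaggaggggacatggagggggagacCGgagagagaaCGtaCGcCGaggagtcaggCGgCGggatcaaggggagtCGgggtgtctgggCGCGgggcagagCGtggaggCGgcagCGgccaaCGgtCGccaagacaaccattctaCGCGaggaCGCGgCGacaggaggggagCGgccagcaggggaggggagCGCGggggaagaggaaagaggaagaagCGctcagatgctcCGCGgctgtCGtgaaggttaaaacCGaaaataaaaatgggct
CDKN2A downstream start: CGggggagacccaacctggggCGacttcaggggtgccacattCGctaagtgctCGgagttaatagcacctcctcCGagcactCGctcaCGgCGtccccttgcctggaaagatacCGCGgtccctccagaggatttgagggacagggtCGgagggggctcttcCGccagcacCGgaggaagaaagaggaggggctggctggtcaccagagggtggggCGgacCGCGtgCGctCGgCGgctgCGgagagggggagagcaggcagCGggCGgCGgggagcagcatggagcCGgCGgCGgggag

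Genes near CCND2 on chromosome 12 were also higher in H1703. Between 4 and 6 Mb of chromosome 12, 8 of 11 genes kept were higher in H1703 than in each other line and 0 lower, among them all 6 protein-coding ones (CCND2, C12orf4, RAD51AP1, DYRK4, AKAP3 and KCNA6). Over all genes kept, 5.78% were higher. This stretch and that at 12 to 14 Mb were picked from 861 bins for their large share of higher genes. CCND2 itself is counted in the first. C12orf4 averaged 65.8 ± 5.82 CPM in H1703, against 19.05 ± 1.46 for H460, 30.5 ± 4.76 for H838 and 7.76 ± 1.39 for H1755. RAD51AP1, a recombination factor, averaged 61.7 ± 6.99 CPM in H1703, against 21.7 ± 5.35 for H460, 26.02 ± 3.66 for H838 and 10.1 ± 2.59 for H1755. The potassium channel gene KCNA6 had 11.9, 10.9, 9.95 and 12.5 CPM in the H1703 libraries, against 0.0409, 0, 0 and 0.0386 CPM in H460, 0.0822, 0.0513, 0.0488 and 0 CPM in H838 and 0.0490, 0, 0 and 0.0834 CPM in H1755. H460, H838 and H1755 had 2, 4 and 3 reads of it in all. Further along, between 12 and 14 Mb, 12 of 22 genes were higher and 2 lower. The glutamate receptor gene GRIN2B in that stretch had 116, 95.0, 95.4 and 117 CPM in the H1703 libraries, against 0.655, 0.819, 0.865 and 0.618 CPM in H460, 0.616, 0.616, 0.146 and 0.315 CPM in H838 and 0.882, 0.537, 0.722 and 0.750 CPM in H1755. LRP6, a WNT co-receptor, averaged 169 ± 13.7 CPM in H1703, against 61.9 ± 11.5 for H460, 63.8 ± 18.6 for H838 and 41.4 ± 18.01 for H1755. GPRC5A, a retinoic acid-inducible receptor of lung epithelium, lies in the same stretch and had 0.922, 0.700, 0.793 and 1.09 CPM in the H1703 libraries, against 62.2, 65.2, 88.0 and 77.7 CPM in H460, 137, 103, 125 and 163 CPM in H838 and 39.96, 42.4, 50.7 and 107 CPM in H1755. Every H1703 library lay below every other, with a wide gap.

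Of the chromatin remodelling genes, SMARCA2 (chr9:1980290-2193624), the ATPase called BRM, was lower and had 2.40, 1.40, 1.51 and 1.57 CPM in the H1703 libraries, against 103, 99.1, 106 and 96.7 CPM in H460, 67.98, 76.2, 65.04 and 59.6 CPM in H838 and 84.9, 80.4, 79.99 and 43.6 CPM in H1755. The groups did not overlap. SMARCA2 log2 fold changes were -5.87 ± 0.22 against H460, -5.28 ± 0.22 against H838 and -5.38 ± 0.22 against H1755 (SE; adjusted p = 7.04e-13, 2.32e-12 and 1.4e-12). SMARCA4, the alternative ATPase BRG1, averaged 140.3 ± 17.6 CPM in H1703, against 356 ± 34.3 for H460, 161 ± 23.7 for H838 and 275 ± 37.4 for H1755. It passed the 2-fold limit against H460 and in neither other comparison (log2 fold changes -1.34, -0.20 and -0.97 against H460, H838 and H1755). RNA levels say nothing of whether the SMARCA4 protein is intact. BRD9, a subunit of the non-canonical complex, averaged 205 ± 14.9 CPM in H1703, against 72.9 ± 7.61 for H460, 95.0 ± 23.5 for H838 and 97.6 ± 25.4 for H1755. Its smallest log2 fold change, 1.07, was 0.95 without replicate 4 of each line, where the call was lost, and also 0.95 without replicate 4 and H460 replicates 1 and 2. Of 24 subunits kept, BRD9 was the 1 higher and SMARCA2 the 1 lower. Over all genes kept the shares were 5.78% higher and 5.92% lower, so the list as a whole did not stand out. The window of SMARCA2 nearest to its annotated start in the RefSeq table, of 4 windows there, is shown beside those of CDKN2A and PDGFRA (GRCh38.p14, plus strand, chr9:2015097-2015396). By these coordinates the window lies inside the gene, downstream of the annotated start and not at it. It holds 30 CG, in capitals.
SMARCA2 promoter: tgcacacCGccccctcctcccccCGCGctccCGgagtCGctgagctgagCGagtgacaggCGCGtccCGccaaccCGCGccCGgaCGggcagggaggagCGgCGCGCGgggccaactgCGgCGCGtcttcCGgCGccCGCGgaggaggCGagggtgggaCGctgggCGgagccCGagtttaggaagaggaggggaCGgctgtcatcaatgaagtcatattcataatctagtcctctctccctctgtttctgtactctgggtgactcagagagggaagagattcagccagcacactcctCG

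MYC, the target of MYCi975, was neither the highest nor the lowest in H1703. It had 82.3, 67.7, 72.3 and 65.8 CPM in the H1703 libraries, against 178, 208, 206 and 149 CPM in H460, 21.8, 19.9, 17.7 and 15.1 CPM in H838 and 34.6, 37.9, 44.02 and 36.2 CPM in H1755. H1703 lay between H460 and the other 2 lines. MYC log2 fold changes were -1.36 ± 0.13 against H460, 1.95 ± 0.13 against H838 and 0.91 ± 0.13 against H1755 (SE; adjusted p = 7.72e-08, 1.24e-09 and 9.67e-06). Of 10 genes in the list of MYC and its partners, 0 were called either way, where 11.7% of all genes kept were. Of the class IIa deacetylases, the targets of TMP195, HDAC9 was higher than in each other line and HDAC4, HDAC5 and HDAC7 were not called. HDAC4 averaged 39.6 ± 2.84 CPM in H1703, against 103 ± 6.12 for H460, 33.5 ± 1.97 for H838 and 100.3 ± 3.67 for H1755. HDAC5 averaged 41.0 ± 6.30 CPM in H1703, against 10.4 ± 0.628 for H460, 34.8 ± 2.32 for H838 and 17.5 ± 1.67 for H1755. HDAC7 averaged 38.4 ± 5.47 CPM in H1703, against 66.9 ± 8.15 for H460, 46.2 ± 13.04 for H838 and 41.8 ± 3.65 for H1755. HDAC9, in contrast, had 16.6, 20.4, 21.2 and 19.4 CPM in the H1703 libraries, against 0.409, 0.0910, 0.273 and 0.232 CPM in H460, 0.0822, 0.0513, 0.244 and 0.0630 CPM in H838 and 4.51, 4.53, 4.23 and 3.54 CPM in H1755. HDAC9 log2 fold changes were 6.23 ± 0.32 against H460, 7.46 ± 0.35 against H838 and 2.21 ± 0.24 against H1755 (SE; adjusted p = 2.91e-11, 1.18e-11 and 5.07e-07).

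KRT8, KRT18 and some other epithelial genes were lower in H1703 than in each other line. Of 28 genes of epithelial adhesion and the cytoskeleton, 18 were kept, and 8 were lower (among them EPCAM, CLDN3, KRT8, KRT18, SPINT1, MARVELD2 and ELF3) and 1 higher (MARVELD3), where 5.92% of all genes kept were lower and 5.78% higher. Medians were -1.95 against H460, -2.78 against H838 and -2.51 against H1755. KRT8, a keratin of simple epithelia, had 19.6, 23.2, 22.7 and 16.7 CPM in the H1703 libraries, against 1502, 1443, 1362 and 1561 CPM in H460, 736, 1105, 843 and 637 CPM in H838 and 459, 451, 429 and 636 CPM in H1755. The highest H1703 library lay far below the lowest of the others. KRT8 log2 fold changes were -6.16 ± 0.20 against H460, -5.34 ± 0.19 against H838 and -4.59 ± 0.18 against H1755 (SE; adjusted p = 1.29e-13, 6.19e-13 and 1.33e-12). Its partner KRT18 averaged 25.5 ± 4.94 CPM in H1703, against 357 ± 43.8 for H460, 297 ± 54.1 for H838 and 149 ± 18.6 for H1755. KRT19 averaged 3.16 ± 0.831 CPM in H1703, against 638 ± 67.4 for H460, 2.48 ± 1.67 for H838 and 3.52 ± 1.02 for H1755, and was lower than in H460 alone. EPCAM, an epithelial adhesion molecule, had 0.0369, 0, 0.0793 and 0.146 CPM in the H1703 libraries, against 0.327, 0.228, 0.319 and 0.348 CPM in H460, 0.904, 1.49, 0.586 and 0.472 CPM in H838 and 3.24, 1.55, 2.89 and 8.50 CPM in H1755. Both EPCAM and CDH1, which encodes E-cadherin, were low in all 4 lines. CDH1 averaged 0.703 ± 0.0761 CPM in H1703, against 0.0660 ± 0.0578 for H460, 5.06 ± 2.29 for H838 and 3.13 ± 3.25 for H1755. It was higher than in H460 and lower than in H838 and H1755. The summed level of the 28 genes was 65.1 to 91.2 CPM in H1703, against 2438 to 2533 CPM in H460, 934 to 1544 CPM in H838 and 673 to 987 CPM in H1755.

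Mesenchymal genes were called in both directions, beside shares of 5.78% higher and 5.92% lower over all genes kept. Of 17 kept, 2 were higher, THY1 among them, and 5 lower (ZEB2, SNAI2, S100A4, TGFBI and AXL), with medians of -1.13, -0.34 and -3.26 against H460, H838 and H1755. TGFBI, a matrix protein induced by TGF-beta, averaged 3.42 ± 0.770 CPM in H1703, against 519 ± 72.9 for H460, 205 ± 27.3 for H838 and 94.8 ± 3.01 for H1755. TGFBI log2 fold changes were -7.25 ± 0.18 against H460, -5.91 ± 0.17 against H838 and -4.79 ± 0.17 against H1755 (SE; adjusted p = 1.52e-14, 6.74e-14 and 2.3e-13). The repressor ZEB2 averaged 6.04 ± 1.70 CPM in H1703, against 41.2 ± 9.84 for H460, 65.9 ± 14.02 for H838 and 63.6 ± 7.77 for H1755. ZEB1 averaged 107 ± 7.01 CPM in H1703, against 75.9 ± 5.96 for H460, 136 ± 12.8 for H838 and 142 ± 14.7 for H1755 and was not called. VIM, the intermediate filament vimentin, averaged 1171 ± 134 CPM in H1703, against 987 ± 29.2 for H460, 503 ± 11.2 for H838 and 2609 ± 242 for H1755. It stood between H460 and H1755. FN1, fibronectin, averaged 20.2 ± 0.724 CPM in H1703, against 1922 ± 113 for H460, 27.1 ± 0.919 for H838 and 194 ± 223 for H1755. THY1, a surface protein of fibroblasts and neurons, was higher and averaged 87.7 ± 10.8 CPM in H1703, against 1.71 ± 0.233 for H460, 13.98 ± 2.71 for H838 and 1.23 ± 0.717 for H1755. CD44, the hyaluronan receptor, was lower and averaged 3.43 ± 1.21 CPM in H1703, against 125 ± 31.3 for H460, 207 ± 30.7 for H838 and 729 ± 67.9 for H1755. In the list of collagens and matrix glycoproteins 4 of 24 were lower (COL1A1, COL6A1, LAMA3 and LAMB3) and 0 higher. COL6A1 averaged 3.33 ± 0.747 CPM in H1703, against 37.98 ± 4.75 for H460, 9.31 ± 1.41 for H838 and 181 ± 19.8 for H1755.

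Lineage and patterning factors differed in both directions, where 5.78% of all genes kept were higher and 5.92% lower. Of 61 developmental transcription factors kept, 10 were higher (SIX3, LHX2, LHX6, IRX4, MEIS3, DLX6, NR2F1, LMX1B, POU3F2 and HAND2) and 10 lower (among them SOX6, SOX9, SIX2, TBX3, TBX18, FOXL1, DLX1, DLX2 and EYA4). SOX2 (chr3:181711924-181714436), a factor of squamous and neural lineages, had 20.4, 16.1, 14.4 and 12.3 CPM in the H1703 libraries, against 2.41, 1.73, 2.69 and 0.116 CPM in H460, 0, 0.0513, 0.244 and 0.0630 CPM in H838 and 0.294, 0.119, 0.103 and 0 CPM in H1755. The lowest H1703 library lay above the highest of the others. SOX2 log2 fold changes were 3.19 ± 0.57 against H460, 7.46 ± 0.79 against H838 and 6.92 ± 0.77 against H1755 (SE; adjusted p = 1.02e-04, 2.95e-07 and 5.14e-07). NR2F1, an orphan nuclear receptor of neural crest and forebrain, averaged 267 ± 35.0 CPM in H1703, against 23.8 ± 3.13 for H460, 2.28 ± 0.0504 for H838 and 1.61 ± 0.743 for H1755. SIX3, a factor of the forebrain and eye, averaged 22.8 ± 2.23 CPM in H1703, against 0.962 ± 0.172 for H460, 0.0907 ± 0.107 for H838 and 0.453 ± 0.0604 for H1755. SOX9, a factor of distal lung and cartilage, averaged 0.397 ± 0.187 CPM in H1703, against 23.4 ± 3.11 for H460, 7.72 ± 1.39 for H838 and 16.7 ± 6.25 for H1755. TBX18, a factor of mesenchyme, had 0.258, 0.288, 0.317 and 0.292 CPM in the H1703 libraries, against 16.9, 18.1, 19.9 and 25.4 CPM in H460, 30.5, 27.8, 30.7 and 36.0 CPM in H838 and 28.6, 25.8, 25.5 and 29.01 CPM in H1755. Of 27 HOX genes, 3 of the C cluster were higher (HOXC6, HOXC8 and HOXC9) and 4 of the B cluster lower (HOXB5, HOXB6, HOXB7 and HOXB8). HOXC8 averaged 91.7 ± 5.19 CPM in H1703, against 9.38 ± 1.52 for H460, 34.1 ± 11.7 for H838 and 0.520 ± 0.334 for H1755. HOXB7 had 0.332, 0.165, 0.198 and 0.328 CPM in the H1703 libraries, against 31.4, 23.98, 24.3 and 23.3 CPM in H460, 18.9, 25.4, 16.2 and 16.6 CPM in H838 and 22.6, 18.2, 17.6 and 18.5 CPM in H1755. All 4 H1703 libraries were near 0 and none of the others was. In the neuroendocrine and neuronal list 5 of 16 genes were higher and 3 lower. Of these, NEFH, a neurofilament, averaged 34.1 ± 10.5 CPM in H1703, against 4.79 ± 1.06 for H460, 0.610 ± 0.118 for H838 and 16.6 ± 2.05 for H1755. SNAP25, a synaptic vesicle fusion protein, averaged 0.172 ± 0.0889 CPM in H1703, against 2.68 ± 0.614 for H460, 11.98 ± 3.12 for H838 and 32.3 ± 22.7 for H1755.

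Lists of developmental signalling genes held calls in both directions, beside shares of 5.78% higher and 5.92% lower over all genes kept. In TGF-beta and BMP signalling 5 of 38 genes were higher (TGFBR2, BMP7, BMPR1B, INHBB and INHBE) and 5 lower (TGFB2, TGFB3, TGFBR3, BMP2 and FSTL1). TGFBR2, the ligand-binding TGF-beta receptor, averaged 294 ± 11.9 CPM in H1703, against 9.71 ± 2.17 for H460, 67.3 ± 5.95 for H838 and 83.7 ± 3.58 for H1755. BMP7, a bone morphogenetic protein, averaged 15.1 ± 1.34 CPM in H1703, against 0.274 ± 0.157 for H460, 0.0729 ± 0.0603 for H838 and 0.0666 ± 0.0777 for H1755. BMP2 averaged 0.353 ± 0.153 CPM in H1703, against 1.91 ± 0.345 for H460, 4.57 ± 1.91 for H838 and 76.3 ± 12.8 for H1755. In WNT and Hedgehog signalling 4 of 36 were higher (WNT5B, LRP6, NKD1 and GLI1) and 5 lower (WNT5A, FZD9, LGR4, TCF7L2 and GLI2), where WNT5A was not called by DESeq2. GLI1, a Hedgehog effector and target, averaged 17.8 ± 2.45 CPM in H1703, against 0.793 ± 0.139 for H460, 1.08 ± 0.386 for H838 and 0.799 ± 0.176 for H1755. GLI2, of the same family, averaged 4.76 ± 0.898 CPM in H1703, against 22.7 ± 2.55 for H460, 27.9 ± 5.37 for H838 and 16.2 ± 0.961 for H1755. LGR4, the R-spondin receptor, averaged 1.26 ± 0.195 CPM in H1703, against 88.8 ± 5.11 for H460, 56.5 ± 26.4 for H838 and 8.07 ± 5.15 for H1755. In Notch signalling 2 of 18 were higher (DLL1 and HEY2) and 4 lower (JAG1, HES4, HEYL and MAML2). The ligand JAG1 averaged 2.27 ± 0.329 CPM in H1703, against 27.2 ± 5.36 for H460, 10.5 ± 2.48 for H838 and 51.7 ± 38.4 for H1755.

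Enzymes that handle xenobiotics were mostly lower in H1703, where 5.92% of all genes kept were lower and 5.78% higher. Of 30 xenobiotic enzymes and related genes, 19 were kept, and 11 were lower in H1703 than in each other line and 1 higher, with medians of -3.003 against H460, -2.49 against H838 and -2.67 against H1755. The lower ones are CYP1A1, CYP1B1, CYP2S1, CYP4F3, CYP26B1, AKR1B1, ALDH2, GSTM2, CBR3, NAT1 and TXNIP. CYP1B1, a cytochrome induced through the aryl hydrocarbon receptor, averaged 5.78 ± 0.850 CPM in H1703, against 278 ± 37.2 for H460, 341 ± 26.03 for H838 and 99.996 ± 21.7 for H1755. CYP1B1 log2 fold changes were -5.59 ± 0.18 against H460, -5.88 ± 0.18 against H838 and -4.11 ± 0.17 against H1755 (SE; adjusted p = 1.29e-13, 1.19e-13 and 1.79e-12). CYP1A1, induced by the same receptor, averaged 0.0890 ± 0.0687 CPM in H1703, against 2.77 ± 1.60 for H460, 1.65 ± 0.789 for H838 and 1.87 ± 0.352 for H1755. The exception was ALDH1A1, a retinaldehyde dehydrogenase, which averaged 1325 ± 222 CPM in H1703, against 86.8 ± 31.1 for H460, 5.68 ± 2.39 for H838 and 16.1 ± 15.4 for H1755.

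Several targets of NRF2, the transcription factor of the oxidative stress response that KEAP1 holds down, were lower. Of 30 kept, 10 were lower (GCLM, PGD, TALDO1, ME1, AKR1C3, GSTM3, TRIM16L, ABCC2, ABCC3 and FTL) and 1 higher (HMOX1), beside 5.92% and 5.78% of all genes kept. The medians were -2.39 against H460, -0.09 against H838 and -2.35 against H1755, and 24, 10 and 24 members were lower in these comparisons. ME1, the cytosolic malic enzyme that makes NADPH, had 2.80, 1.98, 2.81 and 2.30 CPM in the H1703 libraries, against 353, 272, 321 and 491 CPM in H460, 125, 117, 140.0 and 180.0 CPM in H838 and 190.0, 184, 207 and 192 CPM in H1755. No H1703 library reached 3 CPM. ME1 log2 fold changes were -7.18 ± 0.22 against H460, -5.83 ± 0.21 against H838 and -6.28 ± 0.21 against H1755 (SE; adjusted p = 7.47e-14, 5.53e-13 and 1.95e-13). PGD, of the pentose phosphate pathway, averaged 235 ± 4.50 CPM in H1703, against 1165 ± 35.3 for H460, 668 ± 45.5 for H838 and 1829 ± 153 for H1755. GCLM, of glutathione synthesis, averaged 108 ± 19.5 CPM in H1703, against 309.9 ± 61.9 for H460, 345 ± 51.5 for H838 and 233 ± 17.9 for H1755. TRIM16L averaged 5.17 ± 0.192 CPM in H1703, against 163 ± 8.79 for H460, 129 ± 1.498 for H838 and 108 ± 30.3 for H1755. HMOX1, haem oxygenase 1, averaged 286 ± 23.2 CPM in H1703, against 48.9 ± 14.4 for H460, 28.9 ± 5.97 for H838 and 16.1 ± 5.10 for H1755. NQO1, a quinone reductase and NRF2 target, averaged 679.6 ± 32.1 CPM in H1703, against 1359 ± 75.9 for H460, 856 ± 42.3 for H838 and 902 ± 111 for H1755. It was not called. The aldo-keto reductase AKR1B10 averaged 6.04 ± 1.53 CPM in H1703, against 1019 ± 106 for H460, 6.63 ± 3.54 for H838 and 653 ± 208 for H1755. KEAP1 itself averaged 39.6 ± 2.24 CPM in H1703, against 60.7 ± 8.41 for H460, 15.8 ± 1.40 for H838 and 53.7 ± 11.2 for H1755.

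Of 25 glycolysis and lactate genes kept, 6 were lower (SLC2A1, HK2, ALDOC, LDHA, SLC16A3 and PDK1) and 0 higher, with medians of -0.73, -0.54 and -0.36 against H460, H838 and H1755. LDHA, lactate dehydrogenase A, had 274, 275, 284 and 273 CPM in the H1703 libraries, against 1103, 1079.8, 1140.3 and 1239 CPM in H460, 868, 992, 913 and 1072 CPM in H838 and 648, 683, 719.8 and 778 CPM in H1755. The groups did not overlap. LDHA log2 fold changes were -2.04 ± 0.09 against H460, -1.80 ± 0.09 against H838 and -1.35 ± 0.09 against H1755 (SE; adjusted p = 3.56e-12, 1.65e-11 and 4.5e-10). SLC2A1, the glucose transporter GLUT1, averaged 4.39 ± 0.595 CPM in H1703, against 144 ± 5.11 for H460, 45.7 ± 1.56 for H838 and 146 ± 6.62 for H1755. SLC2A1 log2 fold changes were -5.03 ± 0.10 against H460, -3.38 ± 0.10 against H838 and -5.05 ± 0.10 against H1755 (SE; adjusted p = 1.13e-15, 4.99e-14 and 9.74e-16). SLC16A3, the lactate exporter MCT4, averaged 4.94 ± 0.503 CPM in H1703, against 168 ± 20.7 for H460, 21.3 ± 3.94 for H838 and 112 ± 27.1 for H1755. HK2, hexokinase 2, averaged 18.4 ± 1.41 CPM in H1703, against 103 ± 7.86 for H460, 98.6 ± 7.24 for H838 and 64.3 ± 11.5 for H1755. Of 30 amino acid and one-carbon enzymes kept, 4 were higher (PHGDH, PSPH, MTHFD1L and GLDC) and 5 lower (ALDH1L1, ALDH1L2, ASS1, CTH and BCAT1), and ALDH1L1 lost its call without replicate 4 of each line and H460 replicates 1 and 2 (log2 fold change -3.18, against -4.73 over all libraries). PHGDH, the first enzyme of serine synthesis, averaged 116 ± 3.77 CPM in H1703, against 43.1 ± 1.36 for H460, 12.8 ± 2.46 for H838 and 24.01 ± 7.17 for H1755. PSPH, the last, averaged 63.04 ± 3.60 CPM in H1703, against 12.2 ± 1.24 for H460, 18.8 ± 3.57 for H838 and 21.4 ± 3.997 for H1755. BCAT1, a branched-chain aminotransferase, had 0.627, 1.07, 0.911 and 0.948 CPM in the H1703 libraries, against 94.0, 78.1, 92.4 and 144 CPM in H460, 61.3, 65.7, 66.7 and 73.1 CPM in H838 and 62.8, 76.6, 76.1 and 67.5 CPM in H1755. ASS1, argininosuccinate synthase, averaged 0.142 ± 0.0773 CPM in H1703, against 19.1 ± 4.05 for H460, 5.97 ± 1.83 for H838 and 0.824 ± 0.151 for H1755. Of 25 nuclear-encoded subunits of oxidative phosphorylation 0 were called either way. For all lists of this paragraph, the shares over all genes kept were 5.78% higher and 5.92% lower.

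Genes of antigen presentation and of inflammation were called in both directions, beside shares of 5.78% higher and 5.92% lower over all genes kept. Of 15 genes of MHC class I presentation kept, 4 were higher (HLA-C, TAP1, PSMB9 and ERAP1) and NLRC5 lower. HLA-C had 162, 196, 169 and 129.9 CPM in the H1703 libraries, against 1.55, 2.14, 2.004 and 0.772 CPM in H460, 0.863, 0.718, 0.977 and 0.409 CPM in H838 and 2.55, 2.21, 2.37 and 2.13 CPM in H1755. No library of the other lines came near H1703. HLA-C shares sequence with the other class I genes and varies between people, so its counts are uncertain. TAP1, the peptide transporter, averaged 70.2 ± 6.61 CPM in H1703, against 14.4 ± 0.917 for H460, 6.14 ± 1.33 for H838 and 14.5 ± 2.11 for H1755. ERAP1, the peptide trimming enzyme, averaged 208 ± 9.49 CPM in H1703, against 71.6 ± 5.24 for H460, 46.9 ± 5.22 for H838 and 82.8 ± 26.4 for H1755. HLA-B averaged 24.1 ± 2.17 CPM in H1703, against 0.917 ± 0.359 for H460, 0.129 ± 0.0971 for H838 and 17.2 ± 11.5 for H1755, and was not called higher than in each other line. NLRC5, the transactivator of class I genes, averaged 2.99 ± 0.884 CPM in H1703, against 12.9 ± 1.25 for H460, 12.95 ± 2.11 for H838 and 17.4 ± 1.99 for H1755. Of 16 cytokines and chemokines, 5 were lower (IL1A, IL6, CXCL8, CXCL2 and CCL20) and CCL2 higher. CCL20 lost its call without replicate 1, 2 or 3 of each line (log2 fold changes -2.34, -3.46 and -2.82) and without H1703 replicate 1, 2 or 3 (-2.83, -3.37 and -2.86). IL6 averaged 0.224 ± 0.139 CPM in H1703, against 7.46 ± 2.51 for H460, 6.90 ± 2.79 for H838 and 35.7 ± 15.7 for H1755. CXCL8, a chemokine for neutrophils, averaged 0.336 ± 0.237 CPM in H1703, against 70.4 ± 27.4 for H460, 1.89 ± 0.955 for H838 and 7.49 ± 5.07 for H1755. CCL2, a chemokine for monocytes, averaged 19.4 ± 5.15 CPM in H1703, against 0.288 ± 0.172 for H460, 1.97 ± 1.13 for H838 and 0.135 ± 0.0316 for H1755. Of 28 interferon-stimulated genes kept, 3 were lower (IRF7, GBP1 and GBP2) and 0 higher. GBP2 was close to the threshold against H460 (log2 fold change -1.10 ± 0.41, SE, adjusted p = 0.0441). It lost its call without replicate 1 (-0.70), 3 (-1.17) or 4 (-1.20) of each line, without H1703 replicate 1 (-0.81), 2 (-1.16) or 3 (-1.15), with DESeq2 (-1.15), with no filter on low counts (-1.09), with H460 replicates 3 and 4 alone (-1.22), in 1 fit of all 64 libraries (-1.10), and without replicate 4 of each line and H460 replicates 1 and 2 (-1.26).

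Calls among cell cycle genes are set beside a share of 11.7% called in either direction over all genes kept. Of 28 mitotic genes FOXM1, a transcription factor of the G2 and M phases, was the 1 called. It was higher and averaged 378 ± 57.1 CPM in H1703, against 104 ± 11.7 for H460, 95.2 ± 9.85 for H838 and 154 ± 5.35 for H1755. Of 32 S-phase genes RRM1 and E2F8 were lower. RRM1, the large subunit of ribonucleotide reductase, averaged 88.1 ± 4.98 CPM in H1703, against 191 ± 14.6 for H460, 192 ± 6.48 for H838 and 204 ± 5.02 for H1755. Among 23 lung tumour suppressors CDKN2A and STK11 were higher and CDKN1A lower. STK11, the kinase LKB1, averaged 78.6 ± 11.2 CPM in H1703, against 23.8 ± 4.65 for H460, 12.7 ± 1.39 for H838 and 17.6 ± 2.40 for H1755. Among 29 p53 targets 0 were higher and 3 lower (CDKN1A, TNFRSF10B and PHLDA3). PHLDA3, an inhibitor of AKT, had 0.0369, 0.0412, 0.0793 and 0.109 CPM in the H1703 libraries, against 21.7, 25.8, 21.6 and 17.4 CPM in H460, 5.79, 5.13, 6.15 and 6.05 CPM in H838 and 12.3, 11.98, 11.6 and 10.002 CPM in H1755.

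**Figure D4:**
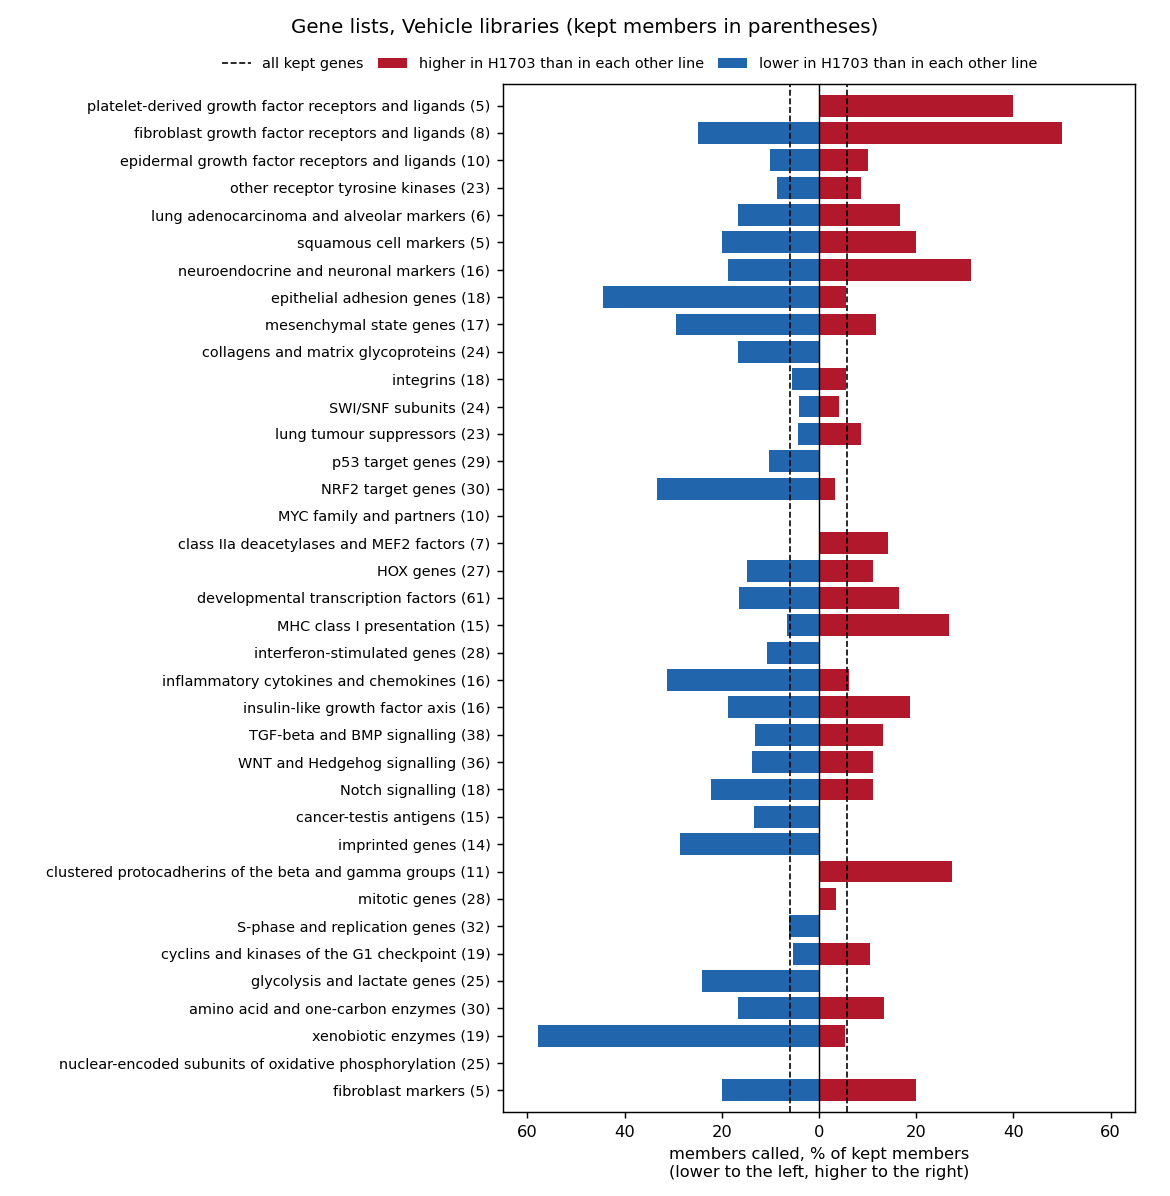
Share of the kept members of each list called higher (red, to the right) or lower (blue, to the left) in H1703 than in each other line, in percent, for lists with 5 or more kept members (number in parentheses). Dashed lines mark the shares over all kept genes, 5.78% higher and 5.92% lower; the bar of xenobiotic enzymes, 11 of 19, reaches farthest to the left.

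By the smallest of the 3 fold changes, the 12 leading protein-coding genes that were higher in H1703 are KCNA6, TSHZ3, CCND2, PADI2, H4C6, GRIN2B, SDK2, BEND4, CDKN2A, GFRA1, KCNH7 and FSTL5. TSHZ3, a zinc finger factor of kidney and brain, had 28.5, 23.9, 23.5 and 25.2 CPM in the H1703 libraries, against 0.245, 0.0910, 0.137 and 0.0772 CPM in H460, 0.205, 0.154, 0.0977 and 0.0315 CPM in H838 and 0.245, 0.0596, 0.103 and 0.0834 CPM in H1755. PADI2, a peptidylarginine deiminase, had 170.3, 152, 141 and 163 CPM in the H1703 libraries, against 0.982, 1.59, 1.05 and 0.425 CPM in H460, 1.27, 0.770, 0.879 and 0.535 CPM in H838 and 1.03, 1.07, 0.722 and 0.0417 CPM in H1755. SDK2, a synaptic adhesion molecule, had 47.2, 61.0, 64.001 and 46.9 CPM in the H1703 libraries, against 0.368, 0.319, 0.592 and 0.0772 CPM in H460, 0.246, 0.770, 0.391 and 0.126 CPM in H838 and 0.196, 0.716, 0.515 and 0.208 CPM in H1755. In all 3, every H1703 library lay far above every other. BEND4 had 29.1, 28.2, 31.8 and 47.8 CPM in the H1703 libraries, against 0.245, 0.273, 0.228 and 0.232 CPM in H460, 0.0822, 0.154, 0.146 and 0.0315 CPM in H838 and 0.0490, 0.0596, 0.309 and 0.208 CPM in H1755. KCNH7, a potassium channel, had 22.7, 33.9, 32.5 and 33.004 CPM in the H1703 libraries, against 0.123, 0.228, 0.273 and 0.116 CPM in H460, 0.164, 0.103, 0.195 and 0.0945 CPM in H838 and 0.245, 0.179, 0.258 and 0.375 CPM in H1755. The secreted FSTL5 had 4.06, 9.76, 11.7 and 8.42 CPM in the H1703 libraries, against 0.0409, 0.0910, 0.137 and 0 CPM in H460, 0, 0.103, 0 and 0.0315 CPM in H838 and 0, 0.119, 0 and 0.167 CPM in H1755. None of these overlapped between H1703 and the other lines. The 12 genes were chosen by fold in these same libraries, so the lack of overlap follows from the choice and is not separate support. H4C6, a replication-dependent histone H4 gene, had 128, 108, 169.9 and 37.8 CPM in the H1703 libraries, against 0.941, 0.501, 1.18 and 0 CPM in H460, 0.370, 0.410, 1.32 and 0.0315 CPM in H838 and 1.08, 0.596, 1.29 and 0 CPM in H1755. Its reads can map to other histone H4 genes, so this value is uncertain.

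The 12 leading genes that were lower in H1703 are RGL3, LRFN4, ABHD4, PHLDA3, BCAT1, C9orf64, HOXB7, FXYD5, RIN3, TBX18, LTBR and GPRC5A. ABHD4, a lipase of N-acylethanolamine synthesis, had 0.443, 0.206, 0.555 and 0.292 CPM in the H1703 libraries, against 40.9, 37.1, 42.9 and 34.2 CPM in H460, 35.1, 28.7, 31.3 and 32.5 CPM in H838 and 33.9, 36.0, 32.4 and 30.0 CPM in H1755. It stood at nearly the same level in the 3 other lines. ABHD4 log2 fold changes were -6.67 ± 0.19 against H460, -6.39 ± 0.19 against H838 and -6.44 ± 0.19 against H1755 (SE; adjusted p = 6.05e-14, 1.05e-13 and 7.14e-14). LTBR, the lymphotoxin beta receptor, had 0.849, 0.741, 0.674 and 0.729 CPM in the H1703 libraries, against 87.4, 86.5, 87.4 and 63.2 CPM in H460, 84.0, 85.4, 75.5 and 71.1 CPM in H838 and 41.4, 42.8, 47.2 and 74.7 CPM in H1755. LRFN4, a synaptic adhesion molecule, had 0.332, 0.329, 0.238 and 0.109 CPM in the H1703 libraries, against 23.3, 26.6, 24.1 and 25.7 CPM in H460, 28.3, 25.8, 26.2 and 33.7 CPM in H838 and 42.7, 38.8, 39.0 and 24.3 CPM in H1755. No H1703 library of these 3 genes reached 1 CPM. RGL3, an exchange factor for Ral, had 0, 0.0824, 0.0396 and 0.0729 CPM in the H1703 libraries, against 6.01, 4.64, 5.65 and 4.75 CPM in H460, 8.91, 9.60, 9.03 and 8.19 CPM in H838 and 5.88, 6.38, 4.17 and 4.67 CPM in H1755. RIN3, an exchange factor for Rab5, had 0.184, 0.0824, 0.0396 and 0.0365 CPM in the H1703 libraries, against 13.4, 13.6, 12.9 and 5.79 CPM in H460, 18.2, 16.3, 13.3 and 11.4 CPM in H838 and 8.29, 6.56, 6.29 and 4.001 CPM in H1755. C9orf64 had 0.258, 0.288, 0.198 and 0.219 CPM in the H1703 libraries, against 22.3, 20.4, 21.4 and 19.1 CPM in H460, 28.4, 28.99, 25.98 and 25.01 CPM in H838 and 20.2, 20.5, 18.9 and 13.4 CPM in H1755. The groups did not overlap for any of these. All 12 were chosen by fold in the same libraries, so this too follows from the choice and is not separate support. FXYD5, a regulator of the sodium pump, had 1.18, 0.453, 0.594 and 0.182 CPM in the H1703 libraries, against 50.1, 47.0, 49.1 and 25.8 CPM in H460, 80.8, 49.8, 49.7 and 40.8 CPM in H838 and 81.0, 74.2, 74.2 and 10.7 CPM in H1755. Replicate 4 was the lowest library of every line, and the groups did not overlap.

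Position on the chromosomes was a further feature that the choice of genes did not use. Genes were put into bins of 2 Mb by their midpoint. Of 861 bins with at least 8 kept genes, 442 held no gene higher and 405 no gene lower than in each other line. Over all genes kept, 5.78% were higher and 5.92% lower. The bins named were picked for the largest shares, so their counts are not a separate test. The bin with the greatest share of higher genes was that of FGFR1 (chromosome 8, 38 to 40 Mb, 20 of 25), followed by that of CCND2. In the next, on chromosome 5 between 6 and 8 Mb, 6 of 9 genes were higher, among them NSUN2, an RNA methyltransferase, which averaged 477 ± 21.03 CPM in H1703, against 209.7 ± 14.7 for H460, 194 ± 14.6 for H838 and 111 ± 8.36 for H1755. On chromosome 5 between 92 and 94 Mb, 5 of 9 were higher, NR2F1 among them. Lower genes were most frequent on chromosome 8 between 18 and 20 Mb, with 8 of 11 lower and 0 higher. There SH2D4A averaged 0.988 ± 0.321 CPM in H1703, against 79.3 ± 5.78 for H460, 126 ± 20.02 for H838 and 57.7 ± 4.71 for H1755. CSGALNACT1, an enzyme of chondroitin sulfate synthesis, averaged 0.765 ± 0.246 CPM in H1703, against 48.8 ± 4.61 for H460, 27.97 ± 2.82 for H838 and 85.9 ± 8.02 for H1755. INTS10, a subunit of the Integrator complex, lies in the same bin and averaged 46.4 ± 3.57 CPM in H1703, against 95.7 ± 10.2 for H460, 97.0 ± 9.09 for H838 and 93.5 ± 7.51 for H1755. On chromosome 11 between 6 and 8 Mb, 17 of 29 genes were lower, 14 of them protein-coding. Of these, TAF10, a general transcription factor subunit, averaged 22.3 ± 2.74 CPM in H1703, against 45.9 ± 15.97 for H460, 65.1 ± 4.69 for H838 and 101 ± 16.9 for H1755. ZNF215, a zinc finger gene, averaged 0.327 ± 0.153 CPM in H1703, against 10.2 ± 1.17 for H460, 12.5 ± 1.46 for H838 and 12.96 ± 3.04 for H1755. Between 34 and 36 Mb of the same chromosome 6 of 12 were lower, CD44 among them. Copy number was not measured, and its part in these stretches was not tested.

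No gene that averaged at least 5 CPM in every other line was down to 3 reads or fewer over the H1703 libraries. In the opposite direction 2 genes met that limit, LINC01625 and LINC02941. LINC01625 averaged 5.31 CPM in H1703, with 2, 1 and 1 reads over the 4 libraries of H460, H838 and H1755, and LINC02941 averaged 6.07 CPM, with 2, 1 and 3 reads. Both are long non-coding RNA genes.

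The leading higher genes kept a low count in the other lines, which differed between replicates. The 12 were chosen for a large fold in these same libraries, so a low percentage in the other lines follows from that choice. For PDGFRA and the 12 leading higher genes, the level in replicates 1 to 3 of the other lines was at most 1.61% of the H1703 mean, with medians of 0.705% in H460, 0.491% in H838 and 0.585% in H1755. In replicate 4 the medians were 0.306%, 0.212% and 0.330%, and replicate 4 was the lowest library for 10 of the 13 genes in H460, 10 in H838 and 6 in H1755. PDGFRA stood at 0.517%, 0.585% and 0.511% of its H1703 level in replicates 1 to 3 of H1755 and at 0.0217% in replicate 4. CCND2 stood at 0.523%, 0.697% and 0.569%, and at 0.0390% in replicate 4. The size of the largest folds differed between replicate 4 and the others. Against H1755, the log2 ratio of PDGFRA was 7.55 in replicates 1 to 3 and 12.06 in replicate 4, and that of CCND2 7.36 and 11.36. Whether these few reads are transcripts of the other lines was not tested, and both PDGFRA and CCND2 were higher in H1703 in either set of replicates.

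**Figure D5:**
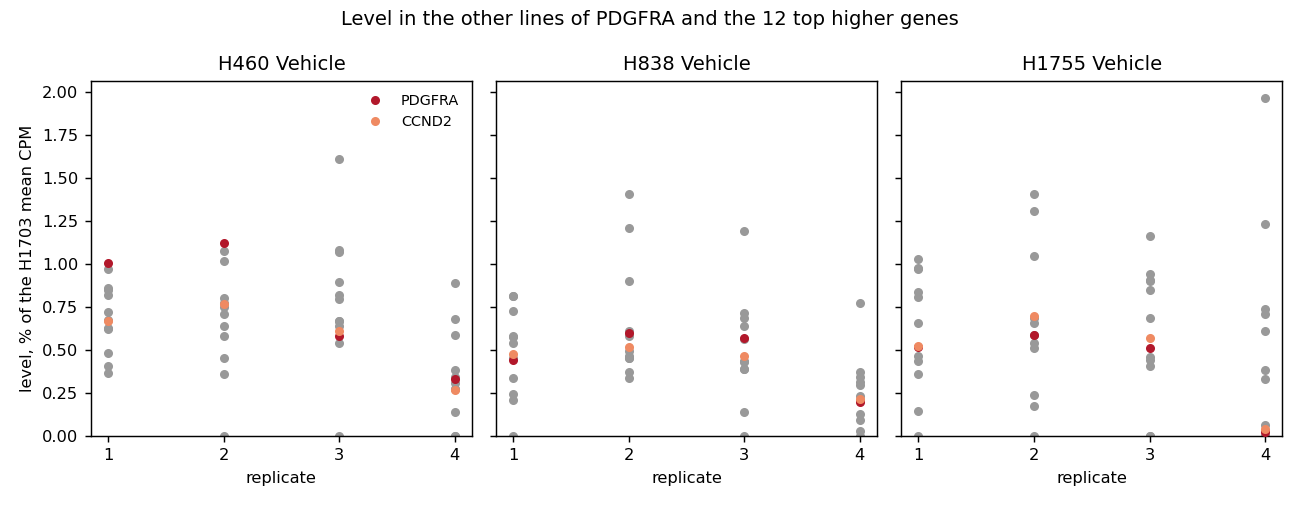
Level of PDGFRA (red), CCND2 (orange) and the other 11 leading higher genes (grey) in each Vehicle library of H460, H838 and H1755, as a percentage of the mean CPM in H1703 Vehicle, by replicate number. No point exceeds 1.96%, and in each line the PDGFRA and CCND2 points are lowest in replicate 4.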

How the data were processed

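RNA counts of 16 Vehicle libraries of 4 cell lines were compared. Per the submitters' processing notes, the authors used Trimmomatic, STAR and featureCounts with GRCh38. Tool versions, the gene annotation used and whether the counting used strand are not given in the sources used here, so antisense and overlapping genes are uncertain. The deposited values are raw read counts per gene, with no normalization by the authors. Depth limits genes of few reads, whose values carry counting error.

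CPM were computed from these counts with TMM-scaled library sizes. Genes past filterByExpr were fitted in 1 edgeR 4.0.16 quasi-likelihood model (R 4.3.3) with a mean for each line, and every adjusted p is from that test with Benjamini-Hochberg adjustment over all tested genes. Each SE was obtained from the fold change and its F statistic. A gene was called at an adjusted p under 0.05 and a 2-fold difference. The test was checked on simulated counts. No label names a batch. Replicate 4 of every line was left out or set apart by a term in some fits because of its low share of mitochondrial ribosomal RNA, and H460 replicates 1 and 2 because they stood apart for genes such as EEF1G. Treated libraries were fitted in the same way.

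The 39 gene lists and the members were chosen with earlier results of these data known. The genes named are the 12 leading protein-coding ones in each direction at 5 CPM or more, up to 4 called members of each list, a set of receptors and drug targets, and genes of the windows and bins. Other list members that are named were chosen after their values were seen. Deviations of same-numbered libraries from their line means correlated between H1703 and the other lines at 0.037 to 0.287, not all over 0.1, so the numbers were not taken to pair libraries. Replicate 4 stood apart in this, at 0.287 with H460, 0.276 with H838 and 0.271 with H1755. Between H1703 replicate 4 and other numbers, the highest values were -0.0934, -0.0670 and -0.107. The main fit held no term for replicate 4. DESeq2 1.42.0, other scalings, filters, fold limits and left-out libraries were tried as alternatives. Promoter sequences are from RefSeq, GRCh38.p14, matched by symbol. A promoter was found for 74.5% of the higher and 77.1% of the lower protein-coding genes, too few for a comparison of their sequences. Some genes of these lists are not reported here.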

Additional observations from a re-analysis of the deposited data

Results flagged for a closer look

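In 46 genes described here, each line was searched for a library set apart from its other 3 (184 groups of 4 libraries), and 20 values were, where chance alone flags about 1 in 20 groups. Replicate 4 accounts for 14 of the 20. All values are CPM, and the cause was not tested.

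In H1703 itself 5 values were set apart. SMARCA2 was 2.40 in replicate 1, against 1.57 or less in the others, KCNH7 was 22.7 in replicate 1, against 32.5 or more, and CDH1 was 0.590 in replicate 1, against 0.729 or more. LDHA was 284 in replicate 3, against 275 or less, and HDAC7 was 30.3 in replicate 4, against 40.2 or more. Of these, SMARCA2, KCNH7 and LDHA kept their calls without that library.

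Replicate 4 of H1755 stood low for PDGFRA (0.208, against 4.90 or more), CDKN2A (0, against 0.258 or more), MTAP (0.0417, against 1.19 or more), SMARCA2 (43.6, against 79.99 or more) and FXYD5 (10.7, against 74.2 or more). It stood high for GPRC5A (107, against 50.7 or less), KRT8 (636, against 459 or less) and CDH1 (7.96, against 2.11 or less). In H460, replicate 4 was low for PDGFC (11.5, against 14.8 or more), FXYD5 (25.8, against 47.0 or more), RIN3 (5.79, against 12.9 or more) and LTBR (63.2, against 86.5 or more). HOXB7 was high in H460 replicate 1 (31.4, against 24.3 or less). In H838, CDH1 was high in replicate 4 (8.47, against 4.27 or less) and HDAC9 in replicate 3 (0.244, against 0.0822 or less).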

How the results depend on the processing

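The counts of genes higher and lower in H1703 than in each other line were 1148 and 1175 and stayed within 1.5 times of these under every alternative but the fold limits. Without a minimum fold they were 2446 and 2233, and 12270, 12160 and 11993 genes differed from H460, H838 and H1755, against 6895, 6853 and 6653 at 2-fold. At a minimum of 4-fold they were 404 and 701, and 3243, 3202 and 3329 genes differed. DESeq2 gave 1103 and 1181, of which 1101 and 1155 were the same genes. With the replicate number as a block they were 1177 and 1163, sharing 1136 and 1156, and 6926, 6890 and 6684 genes differed. With no limit on the H460 replicates they were 1458 and 1251, at 1.5-fold 959 and 1037, with no filter on low counts 1304 and 1204, in 1 fit of all 64 libraries 1247 and 1231, and with a term that set replicate 4 and H460 replicates 1 and 2 apart 1160 and 1150. Without replicate 1, 2, 3 or 4 of every line the counts ranged from 1066 to 1226 and from 1081 to 1127, and without 1 H1703 library from 1151 to 1189 and from 1140 to 1167. No gene moved from higher than each other line to lower than each, or the reverse, in any of these fits. Leaving out replicate 4 and H460 replicates 1 and 2 together (1242 and 1074) was chosen after seeing the data. Of 132 named genes, MAGEB2, a cancer-testis gene, changed direction: its smallest log2 fold change was -3.16 over all libraries, -3.62 without replicate 3, -3.11 and not called with DESeq2, 1.03 without replicate 4 and 1.03 without replicate 4 and H460 replicates 1 and 2, and the cause was not tested. Depth limits what can be said of genes at a few reads a library, such as the low counts of PDGFRA outside H1703.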

Other observations

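Some lists have not been described, and their counts stand beside shares of 5.78% higher and 5.92% lower over all genes kept. Of 10 genes of the epidermal growth factor axis kept, HBEGF was higher and AREG lower in H1703 than in each other line. Of 18 integrins, ITGA9 was higher and ITGB8 lower, and ITGB8 was not called by DESeq2 (log2 fold change -3.66). Of 6 adenocarcinoma and alveolar markers LAMP3 was higher and KRT7 lower, and of 5 squamous markers SOX2 was higher and SERPINB5 lower.

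Of 11 clustered protocadherins kept, PCDHB2, PCDHB3 and PCDHB5 were higher and 0 lower. These genes are near-identical copies, so their counts are uncertain, and PCDHB5 fell below the 2-fold limit without replicate 2 of each line (0.97) and without H1703 replicate 1 (0.98). Of 14 imprinted genes, 0 were higher and MEST, MESTIT1, NAP1L5 and L3MBTL1 lower. NAP1L5 lost its call without replicate 3 (-0.94) or 4 (-0.94) of each line and without H1703 replicate 2 (-0.98) or 3 (-0.95), and both NAP1L5 (-0.93) and MESTIT1 (-2.92) without replicate 4 of each line and H460 replicates 1 and 2. Of 15 cancer-testis antigens, 0 were higher and MAGEB2 and PASD1 lower. MAGEB2 was not called by DESeq2 (-3.11), and without replicate 4 of each line its log2 fold change against H1755 was above 0 (1.03). PASD1 lost its call without replicate 1 (-0.72) or 3 (-1.07) of each line and without H1703 replicate 1 (-0.98).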
